A study of Mus musculus with 2 samples.

Results

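The mitochondrial genome of the mouse carries 37 annotated genes, and all 37 had a row among the 43346 gene rows measured in embryonic facial prominence. They were taken as every gene on the mitochondrial chromosome in the GENCODE annotation of GRCm38, and comprise 13 mRNA genes, 2 ribosomal RNA (rRNA) genes and 22 transfer RNA (tRNA) genes. The samples were 2 total RNA libraries from the facial prominences, the swellings of the embryonic head that form the jaws, nose and palate. The tissue came from embryos of the strain labelled B6NCrl at embryonic day 13.5, with males and females pooled, and each library was made from 10 ng of RNA longer than 200 nt. Both libraries belong to 1 group and carry no treatment or engineered allele. They are biological replicates 1 and 2 by their labels, which give each its own biosample but the same donor code, and differences between them can come from the biosample or from the library. With 1 group of n = 2 there is no test between conditions and no p-value.

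Mitochondrial DNA is a small circular genome present in many copies per cell. It is read from both strands into long RNAs that span many genes, and these are cut mostly at the tRNAs that stand between the mRNAs and rRNAs. The mRNAs code for core subunits of 4 complexes of oxidative phosphorylation: complex I (NADH dehydrogenase, the Nd genes), complex III (Cytb), complex IV (cytochrome c oxidase, the Co genes) and complex V (ATP synthase, the Atp genes). All other subunits of these complexes, and the proteins that copy, transcribe and translate the mitochondrial genome, come from nuclear genes. Pieces of mitochondrial DNA are also found inserted in nuclear chromosomes, where they are called NUMTs.

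The genes are packed so tightly that some share bases, and the shared stretches of more than 1 base are printed here. Sequences are from GENCODE M21 transcripts on GRCm38, 5′ to 3′ on the plus strand of the mitochondrial chromosome (M), with the bases shared by both genes in capitals.
mt-Atp8 and mt-Atp6, 43 shared bases, chrM:7927-7969: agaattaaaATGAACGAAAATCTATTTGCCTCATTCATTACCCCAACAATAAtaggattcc
mt-Nd4l and mt-Nd4, 7 shared bases, chrM:10167-10173: cctactacaATGCTAAaaattattc
mt-Nd5 and mt-Nd6, 14 shared bases on opposite strands, chrM:13552-13565: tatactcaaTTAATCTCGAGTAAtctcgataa
The first capitals of the mt-Atp8 and mt-Nd4l lines are the start codon ATG of the downstream gene, and the last are the stop codon TAA of the upstream gene. mt-Atp6 and mt-Co3 share a single base, at position 8607. No stretch of 100 bases, the window length that the deposited effective lengths imply, lay wholly within more than 1 mitochondrial gene.

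Sequence sharing with the nuclear genome reached much further. The nuclear rows that matched the mitochondrial genome included a block of 7 pseudogenes on the minus strand of chromosome 1, chr1:24611535-24616197, whose matches lay in order between positions 6390 and 11042 of the mitochondrial genome. Only annotated transcripts were aligned, so the bases between these rows, and insertions with no annotated gene, were not analysed here. Of these 7 pseudogenes, 5 were identical to the mitochondrial gene over their whole length and 2 differed by 1 base in the matched stretch. The next row of the block, Gm28439, has a match that starts at position 10167 and so holds the last bases of mt-Nd4l. The mt-Nd4l gene, a small membrane subunit of complex I, is shown whole. Its nuclear copy Gm10222, as annotated, holds every base but those in capitals, the 3 bases of the stop codon, which lie in Gm28439.
mt-Nd4l, chrM:9877-10173, plus strand, 297 nt: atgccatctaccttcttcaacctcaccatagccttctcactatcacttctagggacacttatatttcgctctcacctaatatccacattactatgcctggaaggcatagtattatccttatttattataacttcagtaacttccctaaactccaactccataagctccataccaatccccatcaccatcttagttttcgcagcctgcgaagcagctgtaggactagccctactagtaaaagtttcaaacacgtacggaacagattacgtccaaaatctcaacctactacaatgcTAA
The 2 base differences in the block are printed next, with the base that differs in capitals and positions counted from 1 at the first base of the mitochondrial gene. Gm29216 differs from mt-Co1 by A1066T, and Gm28438 differs from mt-Nd3 by T3C.
mt-Co1: ggaAttgttttatccaac
Gm29216: ggaTttgttttatccaac
mt-Nd3: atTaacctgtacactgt
Gm28438: atCaacctgtacactgt

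The 22 tRNA genes gave no information on tRNA levels. They are 59 to 75 nt long, shorter than the 100 bases a counted fragment needed, so all 22 had an effective length of 0 and an expected count of 0 in both libraries. The shortest and the longest show how little sequence there is to count.
mt-Ts2, 59 nt, chrM:11613-11671: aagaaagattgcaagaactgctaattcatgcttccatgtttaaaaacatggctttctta
mt-Tl1, 75 nt, chrM:2676-2750: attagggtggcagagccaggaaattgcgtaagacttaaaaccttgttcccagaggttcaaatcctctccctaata
These zeros are therefore a property of the counting, and no upper limit on tRNA abundance follows from them. The extraction kept RNA longer than 200 nt, which also leaves out free tRNA. Of the tRNA genes, 14 lie on the plus strand and 8 on the minus strand.

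All 13 mRNA genes and both rRNA genes reached 1 TPM (transcripts per 1000000 transcripts, a level per length) in both libraries, so 15 of the 37 genes were detected against 34.4% of all gene rows (14920 of 43346). The gene rows held 28542452 expected counts in replicate 1 and 22719352 in replicate 2. Facial mesenchyme markers were present, with 12 of 12 detected and summed levels of 2176 and 2018 TPM. The mitochondrial genes took 1.70% of the gene-row counts in replicate 1 (95% Clopper-Pearson interval 1.70 to 1.71) and 1.85% in replicate 2 (1.84 to 1.85), a mean of 1.77% ± 0.104 (SD, n = 2). Such intervals cover counting error only, and the shares of the 2 libraries lay further apart than their intervals. The mRNAs took 1.20% and 1.31% and the rRNAs 0.504% and 0.537%. In bulk tissue, fewer cells of a type and less RNA per cell cannot be told apart.

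The large rRNA, mt-Rnr2 (chrM:1094-2675), was at 4075 TPM in replicate 1 and 4505 TPM in replicate 2. It had 127818 and 107759 counts, the most of any mitochondrial row, and held 26.3% and 25.7% of the mitochondrial counts. The small rRNA, mt-Rnr1 (chrM:70-1024), was at 882 and 1025 TPM. Per length, mt-Rnr2 was thus 4.62-fold and 4.40-fold above mt-Rnr1 (log2 ratio 2.17 ± 0.05, SD, n = 2), although these RNAs form the subunits of 1 ribosome. Neither rRNA shares a 100-base window with any nuclear row examined. For a step of rRNA depletion, the labels used here give no statement either way.

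As deposited, the 13 mRNAs spanned a 79.4-fold range of mean TPM around a median of 1259.6 TPM. The ATP synthase subunits led. mt-Atp6, the subunit that forms part of the proton channel, was at 5835 and 7913 TPM, and mt-Atp8, a small subunit read from the same RNA, was at 5053 and 5631 TPM. mt-Atp8 is 204 nt long, so its value rests on an effective length of only 105 nt.

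mt-Cytb, the subunit of complex III that binds quinone, was at 2405 and 2698 TPM. Of the complex IV catalytic core, mt-Co1 was at 1929 and 2473 TPM, mt-Co2 at 1412 and 1246 TPM, and mt-Co3 at 1426 and 1093 TPM. mt-Co1 was higher in replicate 2, while mt-Co2 and mt-Co3 were higher in replicate 1.

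The 7 complex I subunits ran from 2257 TPM down to 86.6 TPM on average. mt-Nd1 was at 2224 and 2290.0 TPM, mt-Nd4 at 1135 and 1273 TPM, mt-Nd2 at 749.7 and 799 TPM, and mt-Nd5 at 415 and 427 TPM. These 4 differed little between libraries. mt-Nd3 was at 298 and 356 TPM. mt-Nd4l was at 146 and 27.6 TPM, the lowest mRNA in both libraries and, as a ratio, the one whose libraries lay furthest apart.

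mt-Nd6, also a complex I subunit, is the only mRNA gene on the minus strand (chrM:13552-14070) and was at 566.5 and 530.4 TPM. It took 0.0176% and 0.0158% of the gene-row counts. Its base composition differs from the others: mt-Nd6 is 28.1% G and 5.97% C, whereas the 12 plus-strand mRNAs are 5.88% to 16.1% G and 22.1% to 30.0% C. No statement on strand stands in the labels used here. Whether reads of mt-Nd6 and reads of plus-strand RNA across the same bases were told apart is therefore not known.

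**Figure D1:**
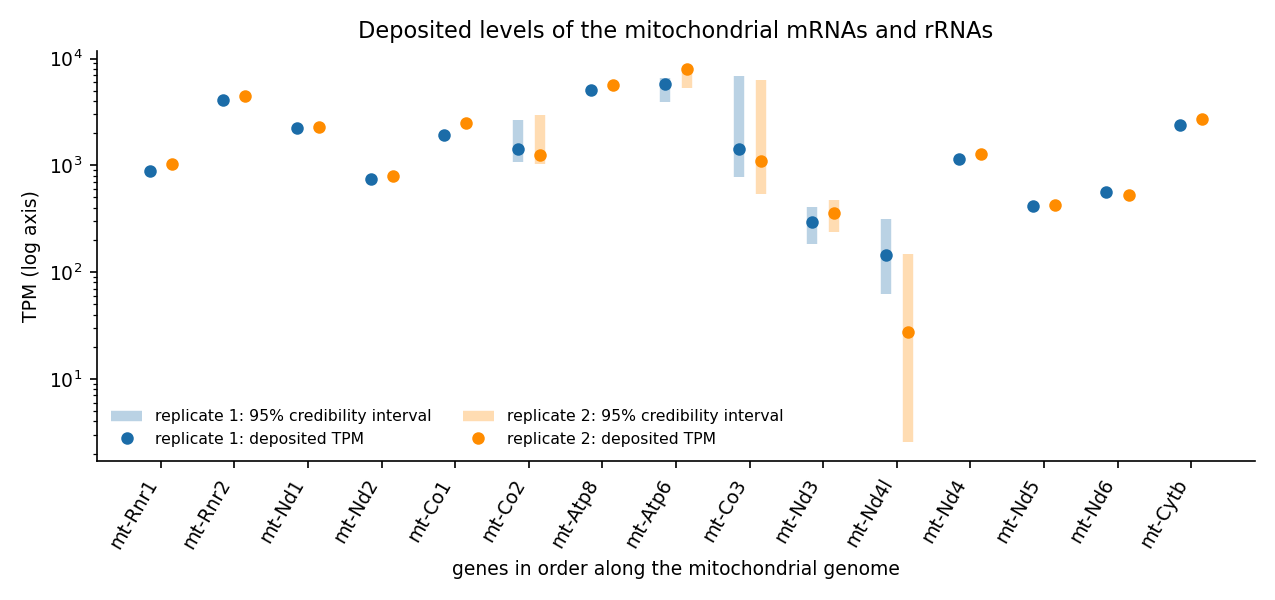
Deposited levels of the 13 mRNAs and 2 rRNAs of the mitochondrial genome in genome order, in TPM on a log axis; points are the 2 libraries and bars the deposited 95% credibility intervals. Intervals are wide for mt-Co2, mt-Atp6, mt-Co3, mt-Nd3 and mt-Nd4l and hidden behind the points for most of the others; mt-Nd4l spans 62.1 to 312 TPM in replicate 1 and 2.55 to 149 TPM in replicate 2.

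How firmly these levels are known differed by gene. The deposited tables give, beside each expected count, a posterior mean and a posterior SD of the count. The SD was 0 for mt-Rnr1, mt-Rnr2, mt-Nd1, mt-Atp8, mt-Nd6 and mt-Cytb and at most 4.66 counts for mt-Nd2, mt-Nd4 and mt-Nd5. For mt-Co3 it was 29744 counts in replicate 1 and 25286 in replicate 2, larger than the expected counts of 20661 and 12080 themselves. The posterior mean of mt-Co3, 43342 and 33753 counts, was also far from the expected count. For mt-Atp6 the posterior SD was 12058 and 7664 counts, for mt-Co2 7213 and 5997, for mt-Nd3 331 and 266, and for mt-Nd4l 275.5 and 133. The deposited TPM itself lay inside its own 95% credibility interval for 6 of the 15 genes in replicate 1 and 4 in replicate 2. The interval therefore cannot be read as an interval around the printed TPM.

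The 5 genes with posterior SDs of 133 counts or more all lay in the stretch that the nuclear block copies. The other 3 mRNA genes of that stretch had smaller ones: at most 124 counts for mt-Co1, 4.66 for mt-Nd4 and 0 for mt-Atp8, which no annotated row of the block copies. Of the 100-base windows of each gene, 582 of 585 in mt-Co2, 579 of 582 in mt-Atp6, 684 of 685 in mt-Co3, 243 of 249 in mt-Nd3 and 195 of 198 in mt-Nd4l also occur in a nuclear row. A fragment within such a window has no base that tells its origin. mt-Nd4 shares 777 of 1279 windows and mt-Co1 446 of 1446. mt-Nd2 shares 30 of 939, with a copy on chromosome 2, and the other 7 genes share none with the annotated rows. For mt-Atp8 this covers little of the block: between Gm28661 and Gm10925 lie 233 nt with no annotated row, chr1:24614652-24614884, the same length as chrM:7694-7926, which holds 161 of the 204 bases of mt-Atp8.

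Counts in the nuclear rows were large. The 11 nuclear rows that matched at 95% identity or more over at least 80% of their length held 169914 counts in replicate 1 and 149899 in replicate 2, equal to 35.0% and 35.7% of the counts in the mitochondrial rows. Nearly all of these counts, 99.98% and 99.95%, lay in 6 pseudogenes of the chromosome 1 block. Gm28437, the copy of mt-Co3, held 97366 and 87677 counts, so that 82.5% and 87.9% of the summed counts of gene and copy stood under the nuclear row. Gm28661, the copy of mt-Co2, held 27807 and 28048 counts. Gm29216, which matches bases 1063 to 1545 of mt-Co1, held 18807 and 23535.

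Gm10925, the copy of mt-Atp6, held 17304 counts in replicate 1 and 2821 in replicate 2. Gm28438, the copy of mt-Nd3, held 6702 and 5767 counts. Gm10222, the copy of mt-Nd4l, held 1886 and 1982 counts, more than the mitochondrial row with its 610 and 88.0. The split between gene and copy thus differed from gene to gene, and also between libraries. The copy's share of the sum was 19.4% and 3.66% for mt-Atp6, and 75.6% and 95.7% for mt-Nd4l. It was 24.2% and 29.0% for mt-Co1 and 61.4% and 70.5% for mt-Co2. For mt-Nd3 it was 81.0% and 80.1%, the smallest change of the 6.

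The seventh pseudogene of the block went the other way. Gm28439 is identical to the first 876 bases of mt-Nd4, yet held 6.21 counts in replicate 1 and 0 in replicate 2. Per possible start position, Gm28439 had 0.00799 counts in replicate 1 where mt-Nd4 had 24.0. Gm29216 had 47.9 and 59.9 counts per start position, against 40.8 and 39.9 over the whole of mt-Co1. Neighbouring pseudogenes of the same block, each matching the mitochondrial sequence, therefore differed from almost none to most of the shared counts. The rows outside the block, 3 on chromosome 2 and 1 on chromosome 13, held at most 36.9 counts.

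**Figure D2:**
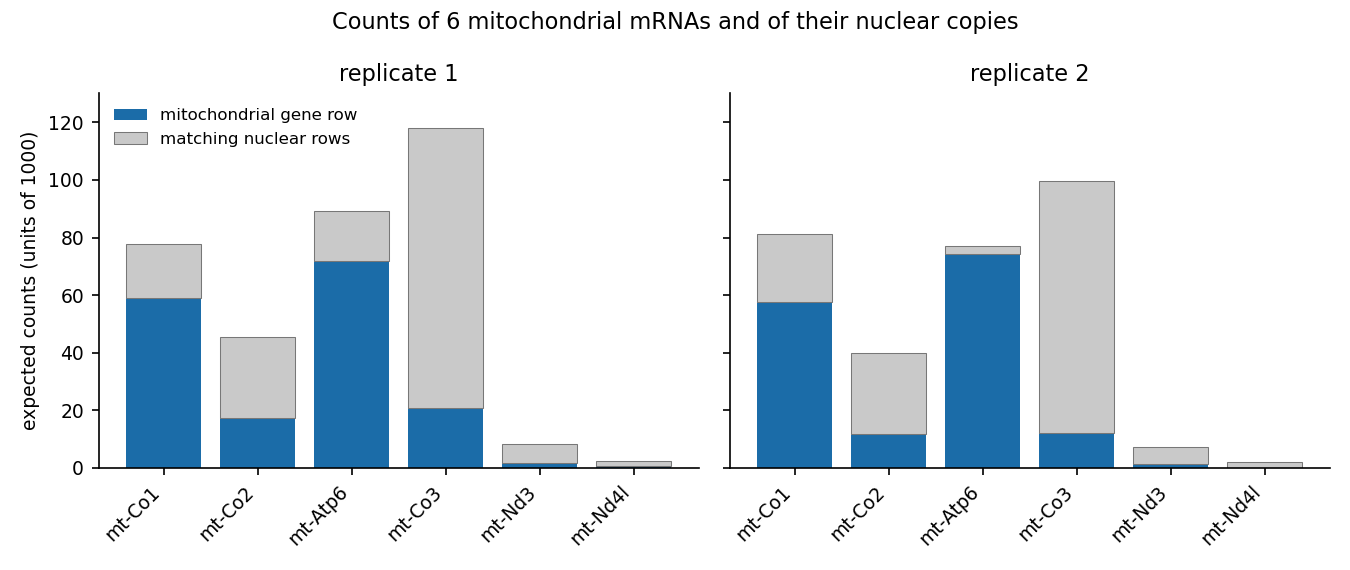
Expected counts, in units of 1000, of 6 mitochondrial mRNA rows (blue) and of the nuclear rows that match them (grey), stacked, for each library. The grey part of mt-Co3 is 97366 and 87677 counts; that of mt-Atp6 is 17304 in replicate 1 and 2821 in replicate 2.

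Summing each gene with its copies removes the dependence on the split, at the price of counting any RNA that the nuclear copies make. On this sum the mitochondrial share was 2.30% and 2.51% of gene-row counts. mt-Co3 moved from rank 7 to rank 1 among the mRNAs, at 8146 and 9029 TPM, 6.82-fold above its deposited mean. mt-Atp6 was at 7241 and 8213 TPM, mt-Co2 at 3660.3 and 4222 TPM, and mt-Co1 at 2545 and 3483 TPM. mt-Nd3 moved from rank 12 to rank 8, at 1570.3 and 1792 TPM. mt-Nd4l was at 596 and 648 TPM, 7.18-fold above its deposited mean and no longer the lowest. The range from the lowest mRNA, then mt-Nd5, to the highest was 20.4-fold on the sums, and the median was 2257 TPM.

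The 2 libraries ordered the mRNAs more alike on the sums. Of the 12 pairs of neighbours in the deposited order, 9 stood in the same order in both libraries. By non-overlapping credibility intervals in both, 5 were apart: mt-Atp8 above mt-Cytb, mt-Cytb above mt-Nd1, mt-Nd4 above mt-Nd2, mt-Nd2 above mt-Nd6 and mt-Nd6 above mt-Nd5. For mt-Nd1 and mt-Co1 the intervals did not overlap in either library, but the order was opposite. Such intervals do not measure the spread between libraries. With copies added, all 12 neighbour pairs of the new order stood alike in both libraries. The rule on intervals was not applied to the sums.

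Read along the genome, the sums showed a run of rising levels. From mt-Nd2 through mt-Co1, mt-Co2, mt-Atp8 and mt-Atp6 to mt-Co3, 6 consecutive mRNAs, each was above the one before it in both libraries. This run was noticed after the values were seen, and it was not present in the deposited split, where mt-Co3 was below mt-Atp6. Its step from mt-Co2 to mt-Atp8 rests on the effective length of mt-Atp8, only 105 nt. With full length mt-Atp8 was at 3485 TPM, below the mean of 3941 TPM of mt-Co2 on the sums, which use effective lengths. The run was not examined with full lengths. After mt-Co3 the next mRNA, mt-Nd3, was at 1681 ± 157 TPM, and mt-Nd4l was at 622 ± 36.9 TPM.

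**Figure D3:**
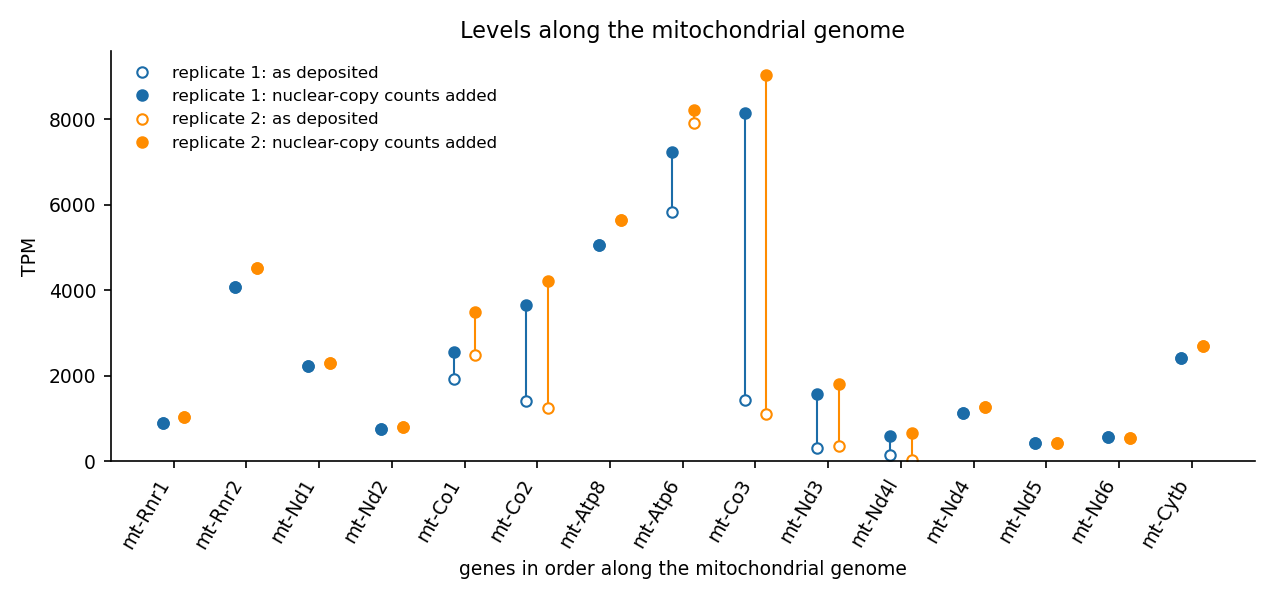
TPM of each mRNA and rRNA in genome order for both libraries, as deposited (open points) and with nuclear-copy counts added (filled points). The line for mt-Co3 runs from 1426 to 8146 TPM in replicate 1 and from 1093 to 9029 TPM in replicate 2, and the filled points rise from mt-Nd2 to mt-Co3.

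A list of 15 pairs of mitochondrial genes, such as genes on a shared RNA, in a shared complex or on opposite strands, was compared by TPM ratios. Of these, 10 were apart by their deposited intervals in the same direction in both libraries, and the mean ratio of 5 changed direction when copies were added. mt-Atp8 and mt-Atp6 are read from 1 RNA. Their log2 ratio was -0.35 ± 0.20 as deposited and -0.53 ± 0.02 with copies. With full lengths in place of effective lengths it was -1.08, as the level of the short mt-Atp8 was then 3485 TPM in place of 5342 TPM. mt-Nd4l and mt-Nd4 are also read from 1 RNA, and their log2 ratio was -4.25 ± 1.82 as deposited and -0.95 ± 0.03 with copies. In both cases the spread between libraries shrank and the smaller gene stayed below its partner.

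mt-Atp6 stood above mt-Co3 as deposited, at a log2 ratio of 2.44 ± 0.58, and slightly below it with copies, at -0.15 ± 0.02. The intervals of these 2 genes overlapped in both libraries, so they were not called apart. mt-Co1 stood above mt-Co3 as deposited (0.81 ± 0.52) and below it with copies (-1.53 ± 0.22). mt-Co1 was apart from mt-Cytb and below it as deposited (-0.22 ± 0.14), and above it with copies (0.23 ± 0.20).

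Pairs of genes with no or almost no copy counts had, by construction, the same ratio on both scales. mt-Nd1 was above mt-Nd2 by a log2 ratio of 1.54 ± 0.04, and mt-Rnr2 was above the adjacent mt-Nd1 by 0.92 ± 0.07. Across the strands, minus-strand mt-Nd6 was above plus-strand mt-Nd5 by 0.38 ± 0.10, and by 0.16 with full lengths in place of effective lengths. Whether reads of mt-Nd6 and of plus-strand RNA across the same bases were told apart is not known, which limits this ratio. mt-Nd5 was below its downstream neighbour on the plus strand, mt-Cytb, by a log2 ratio of -2.60 ± 0.09. These directions held by intervals in both libraries.

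Complexes that mix subunits from both genomes were compared by median TPM. Where copies were added, this was done for the mitochondrial subunits only. The nuclear subunits kept their deposited TPM, and pseudogene copies of them were not looked for. The mitochondrial subunits stood above the nuclear ones in all 4 complexes and both libraries, by more in complexes III and V than in complex I. In complex I, 7 mitochondrial subunits had medians of 566.5 and 530.4 TPM against 231 and 232 TPM for 36 nuclear subunits, 2.45-fold and 2.28-fold higher. Here 3 of the 7, mt-Nd1, mt-Nd2 and mt-Nd4, were above Ndufc1, the highest nuclear subunit at 595 TPM, and 5 of 7 were with copies added.

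In complex III, mt-Cytb was 6.68-fold and 7.85-fold above the median of 9 nuclear subunits, of which Uqcr10 was highest at 586 TPM. In complex IV, the 3 mitochondrial subunits were 3.75-fold and 3.36-fold above the median of 16 nuclear subunits as deposited, and 9.63-fold and 11.4-fold with copies. Those 16 include 5 alternative isoforms of other tissues, such as Cox8b at 1.16 TPM and Cox7a1 at 3.48 TPM. Over the remaining 11, a choice made after the values were seen, the folds were 2.38 and 2.22 as deposited and 6.11 and 7.51 with copies. All 3 were above Cox6c, the highest nuclear subunit at 788 TPM. In complex V, the 2 mitochondrial subunits were 10.6-fold and 13.6-fold above the median of 18 nuclear genes, and both were above Atp5b, the catalytic beta subunit, at 1536 TPM. Over all 4 complexes, 11 of the 13 mitochondrial mRNAs were above the median of the 79 nuclear genes, 329 TPM. The exceptions were mt-Nd3 and mt-Nd4l, and with copies added all 13 were above it. Complex II, which has no mitochondrial subunit, had a median of 195.5 TPM over its 4 nuclear genes, with Sdhb, its iron-sulfur subunit, highest at 306 TPM.

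**Figure D4:**
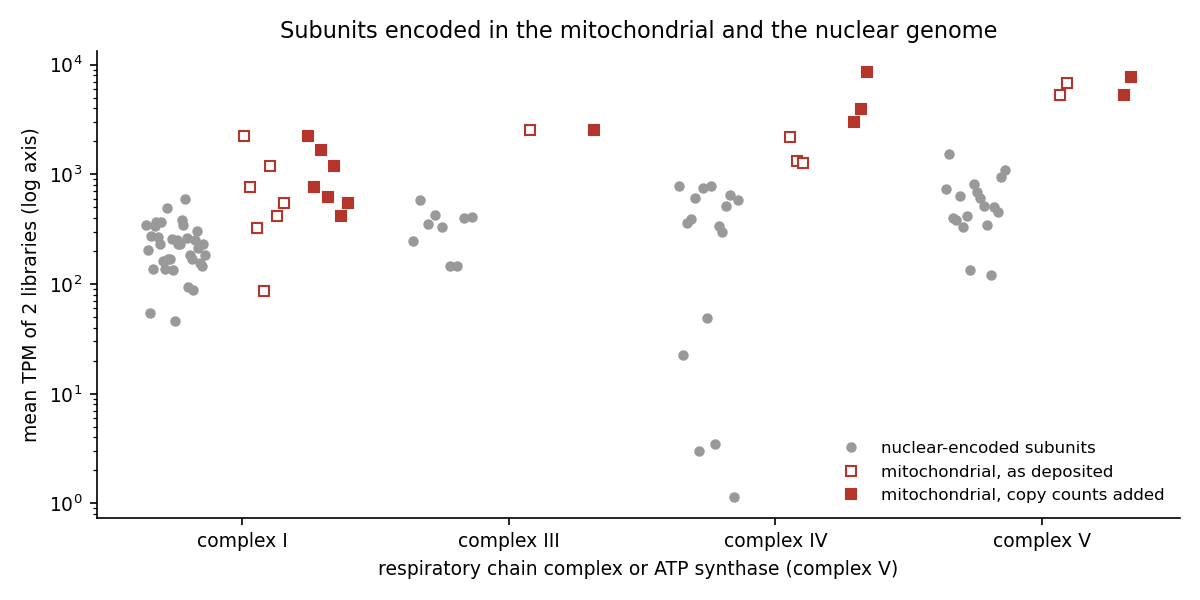
Mean TPM over 2 libraries, on a log axis, of each subunit of complexes I, III, IV and V encoded in the nuclear genome (grey circles) and in the mitochondrial genome as deposited (open squares) or with nuclear-copy counts added (filled squares). Grey circles are deposited values. Within complex III, within complex IV and within complex V, all mitochondrial points lie above all nuclear points of the same complex; in complex I, 3 of 7 open squares and 5 of 7 filled squares do.

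All genes on the lists of nuclear genes that serve the mitochondrial genome were detected. By mean TPM, each list had a median below the lowest deposited mitochondrial mRNA, mt-Nd4l at 86.6 ± 83.5 TPM. In replicate 2 alone this did not hold for the mitochondrial ribosomal protein genes, with a median of 72.1 TPM against 27.6 TPM for mt-Nd4l. All 13 genes of mitochondrial DNA transcription and replication were detected, with a median of 24.4 TPM. Ssbp1, which binds single-stranded mitochondrial DNA, was at 153 ± 22.1 TPM, Tfam, the packaging and transcription factor, at 58.5 ± 1.92 TPM, and Polrmt, the mitochondrial RNA polymerase, at 36.3 ± 4.26 TPM. The lowest of that list was Mterf1a at 7.32 TPM. All 20 genes of mitochondrial RNA processing, stability and decay were detected (median 26.1 TPM), from Slirp, an RNA-binding partner of Lrpprc, at 257 TPM to Pde12, an RNA-trimming enzyme, at 8.29 TPM.

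The 77 mitochondrial ribosomal protein genes had a median of 72.7 TPM and a highest value of 262 TPM, for Mrpl17. The 8 rRNA modification genes had a median of 15.9 TPM, and the highest was Rpusd4, a pseudouridine synthase family member, at 23.2 TPM. Among 20 genes that serve the charging of mitochondrial tRNAs the median was 18.5 TPM, but Lars2, the leucine enzyme, was at 839 ± 78.8 TPM. That is above mt-Nd2, mt-Nd5, mt-Nd6, mt-Nd3 and mt-Nd4l as deposited, and the next highest of the list, Kars, was at 160 TPM. Which stretch of the Lars2 gene its counts came from was not examined, so the value need not be the level of its mRNA. The 8 regulators of mitochondrial biogenesis had a median of 24.0 TPM, led by Nrf1, a transcription factor, at 51.4 TPM. Ppargc1b, a coactivator, was lowest at 2.82 TPM.

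The libraries were compared by log2 ratios of replicate 2 to replicate 1, after TMM scaling, a scaling that sets the bulk of genes level. The 15 mitochondrial genes had a median ratio of 0.05, against -0.03 over all 12730 gene rows whose expected counts averaged at least 100, and whose 5th to 95th percentile was -0.31 to 0.36. Only mt-Nd4l passed 1.5-fold, 1 of 15, where 3.2% of all rows did (407 of 12730). Its log2 ratio was -2.49 (95% Clopper-Pearson interval -2.84 to -2.18, counting error only) as deposited and 0.02 with the copy added. Gm10925, the nuclear copy of mt-Atp6, had a log2 ratio of -2.33. With copies added, a choice made after the values were seen, none of the 15 passed 1.5-fold.

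Other shared genes also drew together on the sums. The log2 ratio of mt-Co3 went from -0.48 to 0.05, that of mt-Co2 from -0.28 to 0.11 and that of mt-Atp6 from 0.34 to 0.08. mt-Co1 went the other way, from 0.26 to 0.35, and was then the furthest from 0. The 8 genes with under 5% of their windows shared lay between -0.19 (mt-Nd6) and 0.12 (mt-Rnr1) as deposited.

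Markers of some other tissues differed between these libraries. Summed levels of 10 liver markers were 15.9 TPM in replicate 1 and 394 TPM in replicate 2 (2 of 10 detected in both), of 8 heart markers 7.07 and 59.7 TPM (1 of 8), and of 12 erythroid markers 15644 and 20909 TPM (12 of 12). Fgb of the liver list and Myl2 of the heart list were at 0 in replicate 1. Erythroid genes did not all go 1 way: 5 were past 1.5-fold higher in replicate 2 and 1, the embryonic globin Hbb-bh1, lower, at a log2 ratio of -1.10. Summed levels were 259 and 289 TPM for 12 skeletal muscle markers and 191 and 235 TPM for 8 neuron markers. Among genes with mean counts of at least 100, 1 of each list was past 1.5-fold. In muscle it was Actc1, at 86.7 and 141.9 TPM. The median log2 ratio of such genes was -0.24 for muscle, opposite to the sum, and 0.19 for neuron. The part of these markers in the mitochondrial ratios was not tested. Scaling by the spike-in rows shifted the median of all genes to 0.53 and that of the mitochondrial genes to 0.61, so 9 of 15 passed 1.5-fold on that scale, together with 4712 of 12730 rows.

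**Figure D5:**
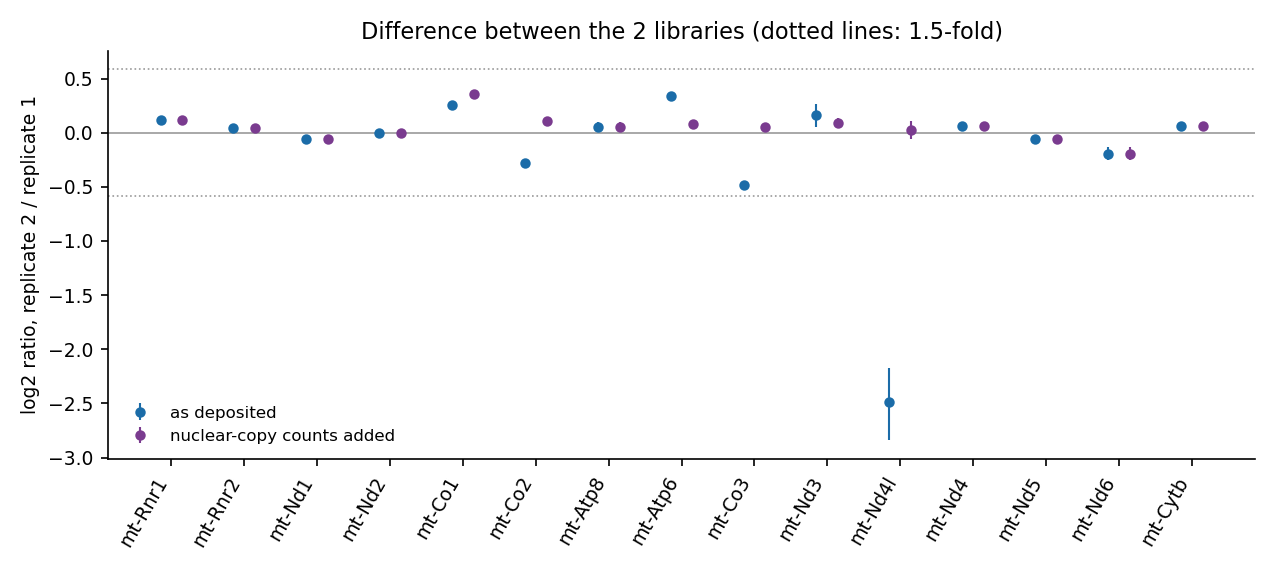
Log2 ratio of replicate 2 to replicate 1 for the 15 mitochondrial mRNA and rRNA genes after TMM scaling, as deposited (blue) and with nuclear-copy counts added (purple); bars are 95% Clopper-Pearson intervals and dotted lines mark 1.5-fold. mt-Nd4l lies at -2.49 as deposited and at 0.02 with its copy, and all purple points lie between -0.19 and 0.35.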

How the data were processed

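Total RNA of 2 libraries was quantified by the submitters on assembly mm10 with GENCODE M4, per the submitters' processing notes; aligner, quantifier and strand setting: not given in the sources used here. Expected counts are the authors' estimated reads per gene, deposited with posterior mean counts and their posterior SD, which was treated as a score. The deposited TPM values sum to 1000000 over all rows, spike-ins included, and the lower and upper credibility bounds, also deposited, are a signal in TPM with no fixed total. The deposited FPKM values served only as an alternative. Transcript tables were not used. Each table had 69691 rows: 43346 genes, of which 884 had no match in GENCODE M21, 96 spike-ins (6.27% and 4.45% of counts; 13.4% and 9.68% of TPM) and 26248 rows named by a number only (0.000171% and 0.000151%). Models of a gene need not be the same in M4 and M21. Effective length was length minus 99 in all 26303 rows with 1 transcript, so sharing was counted in windows of 100 bases.

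The mitochondrial sequence was rebuilt from its 37 transcripts, and all other transcripts were aligned to it with blastn 2.17.0; rows at 95% identity over 80% of their length were taken as copies. Counts of a copy were added to the gene and divided by the gene's effective length. Expected counts were rounded for edgeR 4.0.16 (TMM, prior count 1) and DESeq2 1.42.0 size factors in R 4.3.3, and intervals came from scipy 1.17.1. The ratio step was tested on simulated data. All 13 mRNA and 2 rRNA genes are named, of each nuclear list some of its highest genes and, for some lists, the lowest, and nuclear copies with a mean count of 100 or more; Gm28439 was named after its values were seen. The members and gene lists were chosen with earlier results of these data known. Means are given ± SD over n = 2 libraries.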

Additional observations from a re-analysis of the deposited data

How the results depend on the processing

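The median mRNA level of 1259.6 TPM was 866 in FPKM, 1826 as posterior mean TPM, 1429 with spike-ins left out of the total, 1416 with full lengths, 2257 with nuclear-copy counts added, and 1246 to 1412 leaving out either replicate. Of 78 pairs of mRNAs, 76 kept the deposited order with full lengths, 74 as posterior mean TPM and 61 with copies. The mitochondrial share was 2.40% with copies and 1.25% without rRNA. At 99% identity 7 nuclear rows remained in place of 11. Log2 ratios of mitochondrial to nuclear medians were 1.74 with copies and 1.76 with means for complex I (1.24 as deposited), and 2.54 as posterior mean TPM, 3.39 with copies, 2.06 with means and 1.20 without alternative isoforms for complex IV (1.83). With copies, pairs turned to -0.15 (mt-Atp6 to mt-Co3), -0.40 (mt-Co1 to mt-Co2), -1.53 (mt-Co1 to mt-Co3), -1.13 (mt-Co2 to mt-Co3) and 0.23 (mt-Co1 to mt-Cytb). As posterior mean TPM, mt-Co1 to mt-Co3 turned to -0.47 and mt-Co2 to mt-Co3 to -0.68, and leaving out either replicate the latter ranged from -0.014 to 0.19. Genes past 1.5-fold between libraries numbered 9 under spike-in scaling (median 0.61), 0 with copies and 0 among genes with under 5% of windows shared. Beyond what each alternative changes by construction, the cause was not tested. Detection was 15 genes at 0.5 and at 5 TPM. Where no sequence tells gene from copy, the effect of depth on the split was not tested.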

Other observations

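Set against the deposited mean TPM of the 21461 nuclear protein-coding genes of the tables, mt-Atp8 had 1 of them above it and mt-Rnr2 had 2. mt-Atp6 had 1 above it as deposited and 0 with copies added. For mt-Co3 the number was 46 as deposited and 0 with copies, for mt-Nd3 352 and 23, and for mt-Nd4l 1704 and 151. Sums of posterior mean counts of gene and copy were within 0.41 counts of the sums of expected counts for the 6 genes in both libraries: mt-Co3 with Gm28437 gave 118027 in replicate 1 by either measure, and mt-Atp6 with Gm10925 gave 89139. The 2 deposited measures thus differed in how the shared counts were divided far more than in their total.

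Of the 13 mRNAs, mt-Co3, mt-Nd4 and mt-Cytb end with 1 base, a T, after the last whole codon. This is known for mitochondrial mRNAs, whose stop codon is completed by the poly(A) tail, and Gm28437 stops at the base before it, 783 nt long where mt-Co3 has 784.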
